A study of Mus musculus with 68 samples.

Results

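Tight junction genes are described here by 9 members, Cldn5, Cldn12, Ocln, Marveld2, Lsr, F11r, Jam2, Tjp1 and Cgnl1, each found by its symbol on a single row among the 37991 rows of the deposited table. The series holds 68 mouse RNA-seq libraries in 25 groups. The brain endothelial group (n = 2) came from forebrain of adult male mice of genotype Rosa-tdTomato; VE-Cadherin-CreERT2 given tamoxifen, so that the VE-Cadherin promoter, active in endothelial cells of all vessels, drives the recombinase that labels cells with tdTomato. For the other 66 libraries the labels give no genotype, strain, sex or age, and describe, for whole brain too, cells sorted by flow cytometry into Trizol. Of these, brain vascular cells, which carry the source name of brain endothelial cells, and endothelial cells of heart, kidney, lung and liver had n = 2 each, and whole brain had n = 4. Injury was studied in 4 models. Traumatic brain injury (TBI), epilepsy and stroke (middle cerebral artery occlusion, MCAO) were sampled in brain, and experimental autoimmune encephalomyelitis (EAE) in spinal cord. Endothelial cells were taken in each model at an acute, a subacute and a chronic stage (n = 3 each). Epilepsy, EAE and stroke had 1 control group each (n = 3), and TBI had a control group for each stage (n = 3 acute, n = 2 subacute and n = 2 chronic). The labels give no days for the stages, no inducing agent and no treatment of the controls. They do not say whether replicates came from separate animals, and a p-value here reflects only how far libraries differ within groups. That spread is pooled over all groups of a fit and drawn towards that of other genes. Groups of 2 or 3 libraries can fail to overlap by chance, and the share of all genes without overlap is not given here.

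Tight junctions are strands of membrane proteins that seal the gap between neighbouring cells and limit the passage of solutes between them. In brain capillaries these strands are unusually continuous and form the paracellular part of the blood-brain barrier. Claudins build the strands, occludin and tricellulin are proteins with a MARVEL domain, angulins such as Lsr recruit tricellulin to the corners where 3 cells meet, junctional adhesion molecules (JAMs) are immunoglobulin-like proteins beside the strands, and zonula occludens and cingulin proteins tie them to actin inside the cell.

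The 250 bases upstream of the annotated start are shown for 4 members, because Ocln and Lsr had the closest levels to each other across libraries and Cldn5 and F11r the most opposed ones. Sequences are from RefSeq on build GRCm38.p6, given 5′ to 3′ on the gene's strand. Capitals mark matches on either strand to a TCF/LEF core (CTTTGA), an ETS site (CCGGAAGT), an E2 box (CACCTG), a GC box (GGGCGG) or a TATA box (TATAAA). No 2 matches overlap in these windows.
Ocln chr13:100552499-100552748 (- strand): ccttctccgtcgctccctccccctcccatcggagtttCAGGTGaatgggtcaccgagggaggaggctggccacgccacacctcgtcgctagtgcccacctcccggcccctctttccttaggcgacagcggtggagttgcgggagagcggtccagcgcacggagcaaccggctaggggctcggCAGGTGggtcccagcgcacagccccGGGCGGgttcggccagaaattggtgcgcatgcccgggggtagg
Lsr chr7:30973470-30973719 (- strand): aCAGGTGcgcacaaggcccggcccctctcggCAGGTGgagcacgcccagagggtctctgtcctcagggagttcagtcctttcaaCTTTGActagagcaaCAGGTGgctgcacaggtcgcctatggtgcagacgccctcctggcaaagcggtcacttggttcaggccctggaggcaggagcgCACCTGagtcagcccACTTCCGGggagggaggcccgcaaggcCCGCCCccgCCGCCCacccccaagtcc
Cldn5 chr16:18776597-18776846 (+ strand): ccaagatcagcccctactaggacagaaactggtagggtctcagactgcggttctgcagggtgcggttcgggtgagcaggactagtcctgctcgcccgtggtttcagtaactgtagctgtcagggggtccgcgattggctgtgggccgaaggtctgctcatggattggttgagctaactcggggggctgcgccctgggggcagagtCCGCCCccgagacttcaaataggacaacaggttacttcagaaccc
F11r chr1:171437311-171437560 (+ strand): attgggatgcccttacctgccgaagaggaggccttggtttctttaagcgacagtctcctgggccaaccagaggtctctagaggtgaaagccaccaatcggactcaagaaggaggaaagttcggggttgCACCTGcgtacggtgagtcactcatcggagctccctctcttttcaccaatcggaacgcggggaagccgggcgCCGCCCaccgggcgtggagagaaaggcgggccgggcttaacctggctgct
Of the 9 members 8 matched the promoter table, with 12 annotated starts, and Jam2 did not match. The Lsr window held 4 E2 boxes, 1 TCF/LEF core, 1 ETS site and 2 GC boxes, the Ocln window at its first start 2 E2 boxes and 1 GC box, the F11r window 1 E2 box and 1 GC box, and the Cldn5 window 1 GC box. The window at the second annotated Ocln start, not shown, held 0 E2 boxes and 1 GC box. Among 32851 promoter windows of the same length, 17.2% held an E2 box, 13.8% a TCF/LEF core, 2.88% an ETS site, 32.7% a GC box and 12.4% a TATA box. GC content was 69.2% for Ocln, 66.8% for Lsr, 59.6% for Cldn5 and 60% for F11r, against a median of 52.4% over all windows. A match describes letters in this window and is not evidence that a factor binds there. Ocln and Marveld2, 2 genes of the same protein family, lie next to each other on chromosome 13.

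Recovered depth was 18.8 to 38.8 M reads per library, and mitochondrial rRNA took 12.2% to 51.8% of the reads. The summed level of 10 endothelial markers was 5670 to 13937 CPM (reads of a gene scaled to a library total of 1000000) in the sorted libraries and 117 to 168 CPM in whole brain. The groups also held RNA of other cells. The sum of 10 markers of pericytes and smooth muscle, called mural, was 658 to 740 CPM in brain endothelial and 3974 to 4977 CPM in brain vascular libraries, and summed lung epithelial markers (5 genes) were 177 to 1142 CPM in lung endothelial libraries, against at most 6.02 CPM in the other healthy groups. Summed fibroblast markers (6 genes) were 990 to 1099 CPM in heart, 138 to 567 CPM in liver, 122 to 131 CPM in lung and 2.54 to 12.2 CPM in kidney. They were 72.8 to 92.9 CPM in brain endothelial and 44.7 to 56.3 CPM in brain vascular libraries. In every group of the injury models the mural sum was above that of brain endothelial libraries. It was 3674 to 5487 CPM in epilepsy, 3907 to 5817 CPM in stroke and 4580 to 5273 CPM in EAE controls. In TBI controls it was 1018 to 7735 CPM at the acute, 5610.5 to 6796 CPM at the subacute and 5770 to 7880 CPM at the chronic stage. The part of these other cells in the levels was not tested. Within the brain endothelial group the replicates stood apart. Replicate 1 had the lower Cldn5 (229.6 and 718 CPM in replicates 1 and 2) and the lower Lsr (79.0 and 249 CPM), and replicate 1 had the higher Ocln and Tjp1. Among the injury libraries, EAE acute replicate 1 had a lower endothelial sum (6513 CPM) than EAE acute replicates 2 and 3 and more mitochondrial rRNA (34.4% against 12.2% and 14.8%). In bulk samples such as these, fewer cells of a type and less RNA per cell cannot be told apart.

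Of the 9 genes, 6 were higher in brain endothelial cells than in the mean of the 4 other organs: Ocln, Lsr, Cgnl1, Marveld2, Cldn5 and Tjp1. Cldn12, F11r and Jam2 did not pass the test. Log2 folds are given ± SE and mean CPM ± SD. At an adjusted p under 0.05 in limma on log2(CPM + 1), 11% of the 18141 genes tested passed as higher and 20.6% as lower (17.6% and 16.9% after quantile normalization, 15.7% and 15.5% by edgeR). The median log2 fold was 1.39 over the 9 genes and -0.14 over all genes (0.04 with quantile normalization). Preparation and organ changed together in this comparison and cannot be told apart. Brain vascular cells, which carry the same description as the organ libraries, were higher for the same 6 genes than the mean of the 4 organs, where 6.75% of the 18141 genes tested passed as higher and 15.4% as lower (11% and 12.8% after quantile normalization, 11% and 9.76% by edgeR).

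**Figure D1:**
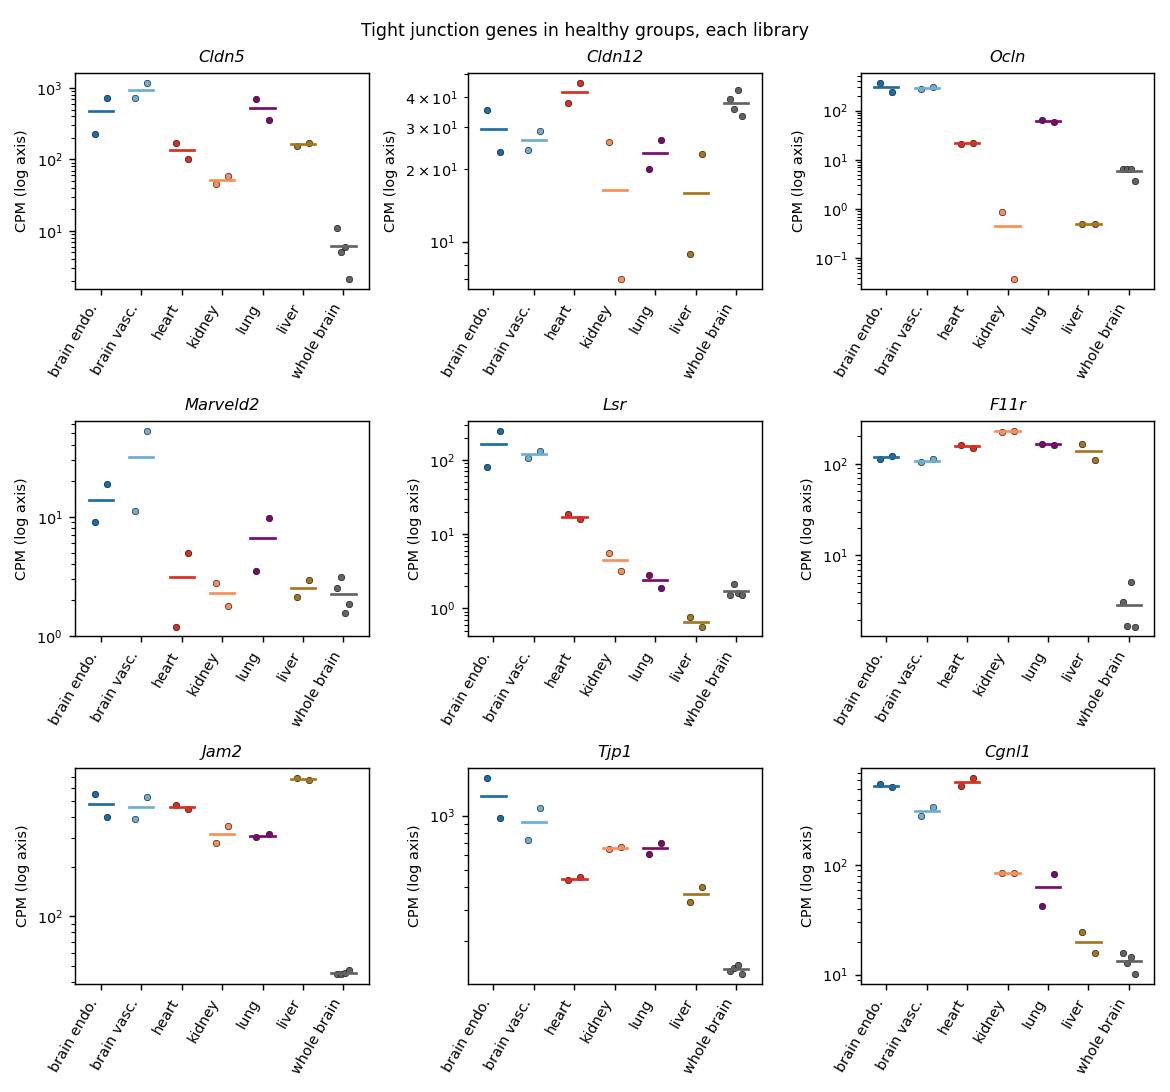
CPM of each tight junction gene in each healthy library (points, log axis) with the group mean (bar), n = 2 per group and n = 4 for whole brain. Ocln and Lsr stand far above the organs in both brain groups, F11r is highest in kidney (224 and 230.1 CPM), Jam2 is highest in liver (691 and 676 CPM), and Cgnl1 in heart overlaps brain endothelial cells.

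Claudin 5, the main strand-forming claudin of brain endothelium, stood at 229.6 and 718 CPM in brain endothelial and 726 and 1176 CPM in brain vascular libraries, against 172 and 103 CPM in heart, 46.1 and 58.0 CPM in kidney, 707 and 360.0 CPM in lung and 153 and 172 CPM in liver. Lung endothelial cells overlapped the brain endothelial ones and kidney endothelial cells were lowest. The log2 fold over the mean of the 4 organs was 1.39 ± 0.46 for brain endothelial cells (adjusted p = 0.0344) and 2.57 ± 0.46 for brain vascular cells (adjusted p = 0.000979). Where 1 library of a pair is left out, the remaining one is assumed to vary like the other groups. The first call was lost without brain endothelial replicate 2 (0.57, adjusted p = 0.444), and with an adjusted p of 0.0504 to 0.0767 with a pseudocount of 0.1, without a filter, or without heart replicate 2, kidney replicate 1, lung replicate 2 or liver replicate 1. Against single organs, brain endothelial cells were higher than kidney (2.95 ± 0.59), while heart (1.60 ± 0.59), liver (1.32 ± 0.59) and lung (-0.31 ± 0.59, 95% interval -1.57 to 0.95) did not pass. The heart and liver differences passed with edgeR (adjusted p = 0.0348 and 0.0478) and without brain endothelial replicate 1 (2.42 and 2.14), and the heart difference also with quantile normalization (1.48) and without whole brain replicate 1 or 4. Claudin 12, a claudin without the usual binding motif for zonula occludens proteins, had 35.3 and 23.5 CPM in brain endothelial and 24.00 and 28.7 CPM in brain vascular libraries, against 37.8 and 45.6 CPM in heart, 25.9 and 6.98 CPM in kidney, 20.00 and 26.6 CPM in lung and 8.86 and 23.1 CPM in liver and 39.0, 35.6, 42.5 and 33.4 CPM in whole brain. Cldn12 passed as higher than kidney without kidney replicate 1 (1.90, adjusted p = 0.0132) and as higher than liver without liver replicate 2 (1.60, adjusted p = 0.0475). It was the only one of the 9 genes that was not higher in brain endothelial cells than in whole brain (log2 fold -0.37 ± 0.42, adjusted p = 0.486), where 25.1% of the 18141 genes tested passed as higher and 32.6% as lower (34.9% and 28.5% after quantile normalization, 18.3% and 44.2% when rescaled without mitochondrial rRNA).

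Occludin, Ocln, separated brain from each other organ. It stood at 366 and 238 CPM in brain endothelial and 274 and 307 CPM in brain vascular libraries, against 21.4 and 21.8 CPM in heart, 0.867 and 0.0373 CPM in kidney, 63.4 and 57.6 CPM in lung and 0.492 and 0.502 CPM in liver. Lung came next after brain, then heart, and the 2 lowest organs rested on few reads, 22 and 1 in the kidney libraries and 13 and 16 in the liver libraries. The log2 fold of brain endothelial cells was 2.27 ± 0.34 over lung, 3.71 ± 0.34 over heart, 7.63 ± 0.34 over liver and 7.73 ± 0.34 over kidney (adjusted p = 0.000182 or lower in limma). Because 1 was added to each value before the logarithm, these folds understate the difference for the organs below 1 CPM. Tricellulin, Marveld2, which seals the corners of 3 cells, stood at 9.11 and 18.7 CPM in brain endothelial and 11.2 and 52.9 CPM in brain vascular libraries, against 1.20 and 5.02 CPM in heart, 2.80 and 1.79 CPM in kidney, 3.49 and 9.78 CPM in lung and 2.12 and 2.95 CPM in liver. The log2 fold over the mean of the 4 organs was 1.78 ± 0.52 for brain endothelial cells (adjusted p = 0.0185, 0.158 without brain endothelial replicate 2) and 2.63 ± 0.52 for brain vascular cells (adjusted p = 0.00197, 0.086 without brain vascular replicate 2). It also passed against heart (1.96 ± 0.66), kidney (2.12 ± 0.66) and liver (2.01 ± 0.66), but each of these calls was lost without a filter, without brain endothelial replicate 2 and without 1 or more of the organ's own libraries. The heart call was lost also with a pseudocount of 0.1, with edgeR, without brain endothelial replicate 1 and without any 1 of the whole brain, kidney or liver libraries, and the kidney call without whole brain replicate 2 or 3.

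Lsr, an angulin first named as a lipoprotein receptor of liver, stood at 79.0 and 249 CPM in brain endothelial and 106 and 132 CPM in brain vascular libraries, against 18.4 and 15.97 CPM in heart, 5.64 and 3.21 CPM in kidney, 2.84 and 1.89 CPM in lung and 0.757 and 0.565 CPM in liver. Among the organs heart was highest and liver lowest, an order that differed from that of Ocln, for which lung was highest. The log2 fold of brain endothelial cells was 2.96 ± 0.44 over heart, 4.74 ± 0.44 over kidney, 5.41 ± 0.44 over lung and 6.41 ± 0.44 over liver (adjusted p = 0.000202 or lower). The authors' deposited table marks 518 genes as enriched at the blood-brain barrier, and of the 9 genes it marks Ocln and Lsr.

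Neither JAM gene passed against the mean of the 4 organs. F11r (JAM-A), an adhesion molecule of endothelium, epithelium and blood cells, stood at 113 and 122 CPM in brain endothelial and 105 and 112 CPM in brain vascular libraries, against 159.7 and 149.6 CPM in heart, 224 and 230.1 CPM in kidney, 164 and 160.4 CPM in lung and 162 and 111 CPM in liver. Both kidney libraries lay above all the other healthy libraries, and the log2 fold of brain endothelial cells was -0.95 ± 0.34 over kidney (adjusted p = 0.065) and -0.50 ± 0.27 over the mean of the 4 organs (adjusted p = 0.174), neither past the threshold. The kidney difference passed without whole brain replicate 3 or 4 (adjusted p = 0.0243 and 0.0442) in limma. Summed epithelial markers (6 genes) were 6.46 to 22.2 CPM in kidney, 50.04 to 66.3 CPM in lung and at most 0.327 CPM in brain endothelial libraries. Summed kidney tubule markers (5 genes) were 31.7 to 94.6 CPM in kidney and 0 in brain endothelial libraries. The part of such cells in F11r was not tested. Jam2 (JAM-B), an adhesion molecule of endothelium, stood at 557 and 400.3 CPM in brain endothelial and 391 and 529 CPM in brain vascular libraries, against 474 and 448 CPM in heart, 277 and 354 CPM in kidney, 302 and 318 CPM in lung and 691 and 676 CPM in liver. Liver was highest, and the log2 fold of brain endothelial cells was -0.53 ± 0.22 over liver (adjusted p = 0.0763) and 0.17 ± 0.17 over the mean of the 4 organs, with a 95% interval of -0.19 to 0.54. The liver difference passed after quantile normalization (-0.63, adjusted p = 0.037), when rescaled without mitochondrial rRNA (-0.72) and without brain endothelial replicate 1. Jam2 passed as higher than kidney and lung when rescaled without mitochondrial rRNA (0.60 and 0.59), with edgeR (0.83 and 0.76) and without brain endothelial replicate 2 (0.83 and 0.84), and than lung also without either brain vascular library or whole brain replicate 4.

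The scaffold genes differed from each other in heart. Tjp1 (ZO-1), which links claudins to actin, stood at 1615 and 965 CPM in brain endothelial and 728 and 1106 CPM in brain vascular libraries, against 440.2 and 453 CPM in heart, 652 and 665 CPM in kidney, 611 and 704 CPM in lung and 332 and 398 CPM in liver. Brain endothelial cells were higher than each organ, by a log2 fold of 0.92 (kidney) to 1.78 (liver), with an adjusted p of 0.02 for kidney, 0.016 for lung, 0.000699 for heart and 0.0001 for liver. The kidney call was lost without brain endothelial replicate 1 or either kidney library, and the lung call without brain endothelial replicate 1 or lung replicate 1. Against the same 4 organs, the brain vascular call for Tjp1 (0.80 ± 0.20, adjusted p = 0.01) was lost without brain vascular replicate 2 (0.50). Cgnl1 (paracingulin), a scaffold that binds ZO-1, stood at 549 and 519.6 CPM in brain endothelial and 284 and 341 CPM in brain vascular libraries, against 530.4 and 628 CPM in heart, 84.3 and 84.3 CPM in kidney, 42.5 and 83.3 CPM in lung and 24.5 and 15.7 CPM in liver. Heart overlapped brain endothelial cells (log2 fold -0.11 ± 0.31, 95% interval -0.78 to 0.55), while kidney (2.65 ± 0.31), lung (3.14 ± 0.31) and liver (4.70 ± 0.31) were far lower.

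Counted organ by organ, 4 of the 9 genes were higher in brain endothelial cells than in heart, 6 than in kidney, 4 than in lung and 5 than in liver, and none was lower. Against heart 9.59% of the 18141 genes tested passed as higher and 13.4% as lower. Against kidney 5.17% of the 18141 genes tested passed as higher and 14.8% as lower (9.51% and 10.1% after quantile normalization, 7.68% and 11.3% by edgeR). Against lung 7.02% of the 18141 genes tested passed as higher and 17.5% as lower (14.6% and 13.6% after quantile normalization), and against liver 15.1% of the 18141 genes tested passed as higher and 16.7% as lower. Ocln, Lsr and Tjp1 passed against all 4 organs. Against whole brain 8 of the 9 genes were higher, by a log2 fold of 2.13 for Marveld2 to 6.01 for Cldn5, and the Marveld2 call was lost without brain endothelial replicate 2.

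None of the 9 genes differed between brain vascular and brain endothelial cells in limma, and none in edgeR on recovered reads, while 4.12% of the 18141 genes tested passed as higher and 3.64% as lower (8.59% and 2.84% when rescaled without mitochondrial rRNA). At an unadjusted p under 0.05 the count was 1, Cgnl1 (log2 fold -0.78 ± 0.31, adjusted p = 0.139), whose 2 groups did not overlap. Shares of all genes at that level, or without overlap, are not given here. The intervals stayed wide with n = 2 per group, for example -0.07 to 2.44 for Cldn5 and -0.75 to 0.70 for Ocln. Without brain endothelial replicate 2, Cldn5 (2.00) and Tjp1 (-0.85) passed. In that fit 1 library stands for brain endothelial cells and is assumed to vary like the libraries of the other groups.

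Beyond the 9 genes, 41 other tight junction genes were listed (claudins, MARVEL proteins and angulins, JAM relatives, scaffolds and the polarity complex), of which 31 passed the filter on low values in the healthy groups. Against the mean of the 4 organs 7 were higher and 9 lower in brain endothelial cells, with a median log2 fold of -0.30, beside 11% higher and 20.6% lower (17.6% and 16.9% after quantile normalization, 15.7% and 15.5% by edgeR) of all genes. The angulin relative Ildr2 had 129 ± 69.9 CPM in brain endothelial cells, against 0.889 ± 0.985 CPM in the 4 organs (log2 fold 6.15 ± 0.37, adjusted p = 2.12e-08). Cldn6, an embryonic epithelial claudin, had 5.10 ± 3.18 CPM in brain endothelial cells and was listed at 0 in heart, kidney and lung (adjusted p = 3.78e-07 against the 4 organs). It also differed between the brain groups, at 0.425 ± 0.0194 CPM in brain vascular cells, against 5.10 ± 3.18 CPM in brain endothelial cells (log2 fold -1.99 ± 0.25, adjusted p = 0.000371). Cldn15, a pore-forming claudin of gut epithelium, was lower, at 0.281 ± 0.397 CPM in brain endothelial cells, against 26.9 ± 44.5 CPM in the 4 organs (log2 fold -2.71 ± 0.26, adjusted p = 2.39e-06). Most of that organ mean came from kidney, at 98.5 ± 13.5 CPM. The SD given for the 4 organs spans libraries of different organs. Between the brain groups 3 of the 31 genes differed, all lower in brain vascular cells, beside 4.12% higher and 3.64% lower (8.59% and 2.84% when rescaled without mitochondrial rRNA) of all genes. Beside Cldn6 these were Ildr2, at 31.9 ± 0.580 CPM in brain vascular cells, against 129 ± 69.9 CPM in brain endothelial cells (log2 fold -1.88 ± 0.46, adjusted p = 0.0274), and Cxadr, a JAM relative, at 6.75 ± 2.80 CPM in brain vascular cells, against 19.3 ± 2.94 CPM in brain endothelial cells (log2 fold -1.43 ± 0.41, adjusted p = 0.0471).

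Across the 64 sorted libraries the level of Ocln went with those of the efflux pump Abcb1a (Pearson r = 0.98), the organic anion carrier Slco2b1 (0.96) and Itih5 (0.95) most closely among 9962 genes compared. For Lsr the closest were the glucose carrier Slc2a1 (0.96), the organic anion carrier Slco1a4 (0.96) and Vwa1 (0.96), and for Cgnl1 they were Pcdh19 (0.93), Nhsl1 (0.92) and Foxc1 (0.90). Cldn5 had looser companions, Gm11223 (0.84), carbonic anhydrase 4, Car4 (0.84), and Aldh1a1 (0.83), and so did Jam2 with Cd59a (0.75) and Cldn12 with Atl2 (0.66). Tjp1 was closest to Mkl2 (0.89), F11r to Sav1 (0.88) and Marveld2 to Slc7a3 (0.82). These values describe libraries that share organs, models and processing. In the authors' deposited table Ocln and Cldn5 belong to the same co-expression module of 299 genes, and Lsr, F11r and Tjp1 each to another module.

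**Figure D2:**
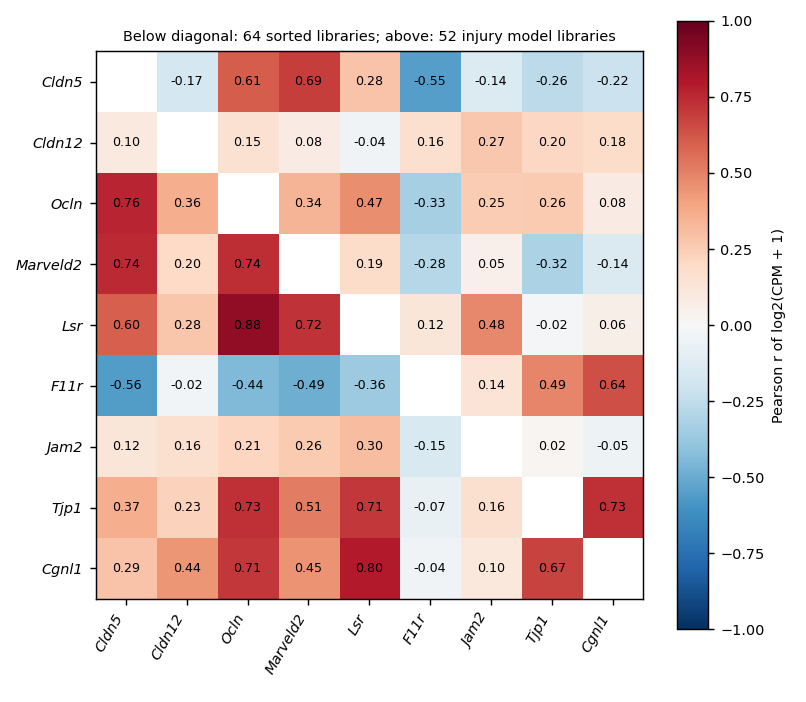
Pearson correlation of log2(CPM + 1) between the 9 genes across the 64 sorted libraries (below the diagonal) and across the 52 injury model libraries (above it), as a description of shared levels. Ocln and Lsr are the closest pair over all sorted libraries (0.88) and reach 0.47 within the injury models, while Cldn5 and F11r are opposed in both (-0.56 and -0.55).

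Among the members, Ocln and Lsr (r = 0.88) and Lsr and Cgnl1 (0.80) were the closest pairs over the 64 sorted libraries. Within the 52 injury model libraries, where no organ other than brain and spinal cord takes part, Ocln and Lsr reached 0.47, and the closest pairs were Tjp1 and Cgnl1 (0.73) and Cldn5 and Marveld2 (0.69). Cldn5 and F11r ran opposite to each other in both sets (-0.56 and -0.55).

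In acute epilepsy 3 of the 9 genes were lower than in the control, Tjp1, Ocln and Cldn5, and none was higher. Among all genes, 11.6% of the 13740 genes tested passed as higher and 30.9% as lower (18.0% and 20.2% after quantile normalization, 18.6% and 22.7% by edgeR). The median log2 fold was 0.01 over the 9 genes and -0.22 over all genes (-0.01 with quantile normalization). Lower calls were thus common among all genes at this stage.

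Ocln stood at 216, 202 and 167 CPM in acute libraries, against 336, 269 and 379.9 CPM in controls, and the groups did not overlap. The log2 fold was -0.74 ± 0.14 (adjusted p = 0.0006, -0.90 with quantile normalization and -0.50 with edgeR, both past the threshold). Tjp1 stood at 712, 723 and 660.3 CPM in acute libraries, against 983, 1143 and 1342 CPM in controls, again without overlap (-0.72 ± 0.14, adjusted p = 0.000612). Cldn5 stood at 421, 444 and 581 CPM in acute libraries, against 775, 594 and 617 CPM in controls (-0.46 ± 0.15, adjusted p = 0.019). All 3 acute values lay below the controls, but the call was lost with edgeR (-0.20, adjusted p = 0.318), without a filter and without control replicate 1, acute replicate 1 or acute replicate 2.

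The other 6 genes did not pass in acute epilepsy. Marveld2 stood at 63.4, 69.8 and 45.3 CPM in acute libraries, against 74.1, 20.6 and 17.6 CPM in controls (0.94 ± 0.37, adjusted p = 0.0502). Control replicate 1 stood apart from the other controls and above all 3 acute libraries. Without it the log2 fold was 1.57 (adjusted p = 4.28e-05), and Cldn12 also passed (0.75, adjusted p = 0.00617). With quantile normalization Marveld2, Cldn12 and Cgnl1 passed as well (1.05, 0.69 and -0.43), and Marveld2 passed without acute replicate 3. Lsr was at 102, 126 and 118 CPM in acute libraries, against 92.4, 100.3 and 159.7 CPM in controls, a log2 fold of 0.01 with a 95% interval of -0.37 to 0.40. Jam2 (0.20 ± 0.11), F11r (0.16 ± 0.14) and Cgnl1 (-0.21 ± 0.14) did not pass, and edgeR called Jam2 (0.46) and F11r (0.42) as higher. Of the 10 endothelial markers, 4 were higher and 4 lower in acute epilepsy, their sum was 11711 to 12412 CPM, against 8796 to 9824 CPM in controls, and 1 of 10 mural markers was higher. The sum of 6 astrocyte markers was 131 to 138 CPM in acute libraries, against 50.3 to 74.7 CPM in controls. Of these, 1 of the 4 tested was called higher, and Aldh1l1 was at 0 in the controls. The sum of 6 oligodendrocyte markers was 4.05 to 5.21 CPM, against 8.97 to 11.7 CPM, with 1 of the 3 tested called lower. Their part in these results was not tested.

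Between the acute and the subacute stage of epilepsy the same 3 genes differed again, now with the later stage higher. At the subacute stage Cldn5 (736, 666 and 763 CPM), Ocln (279, 280.2 and 252 CPM) and Tjp1 (1146, 1196 and 1106 CPM) were all above the acute libraries. The log2 fold of subacute over acute was 0.59 ± 0.15 for Cldn5 (adjusted p = 0.00343), 0.48 ± 0.14 for Ocln (adjusted p = 0.0107) and 0.72 ± 0.14 for Tjp1 (adjusted p = 0.00046), where 37.9% of the 13740 genes tested passed as higher and 11.8% as lower (23.4% and 21.8% after quantile normalization, 24.7% and 21.2% by edgeR). Higher calls were thus common among all genes in this comparison. The 3 differences share the acute libraries with the comparison above and are not independent of it. Quantile normalization moved the median of all genes by -0.33 in this comparison, and all 3 genes still passed. Of the 3, edgeR called Tjp1 alone (Cldn5 0.25, Ocln 0.14, Tjp1 0.38). Jam2 was lower at the subacute stage, at 438, 533 and 492 CPM, against 621, 559 and 618 CPM in acute libraries (-0.30 ± 0.11, adjusted p = 0.0366), and edgeR called it lower too. The log2 fold was 0.08 with quantile normalization, however, and the limma call was lost without a filter, when rescaled without mitochondrial rRNA and without any 1 of 5 libraries (acute replicates 1 and 3, subacute replicates 1 and 3, chronic replicate 2). The Ocln call was lost without acute replicate 3 (0.37, adjusted p = 0.0588). Cldn12 passed as lower at the subacute stage with quantile normalization (-0.90), with edgeR and without control replicate 1 or 2, and Cgnl1 as higher with quantile normalization (0.60), when rescaled without mitochondrial rRNA (0.42) and without subacute replicate 3.

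**Figure D3:**
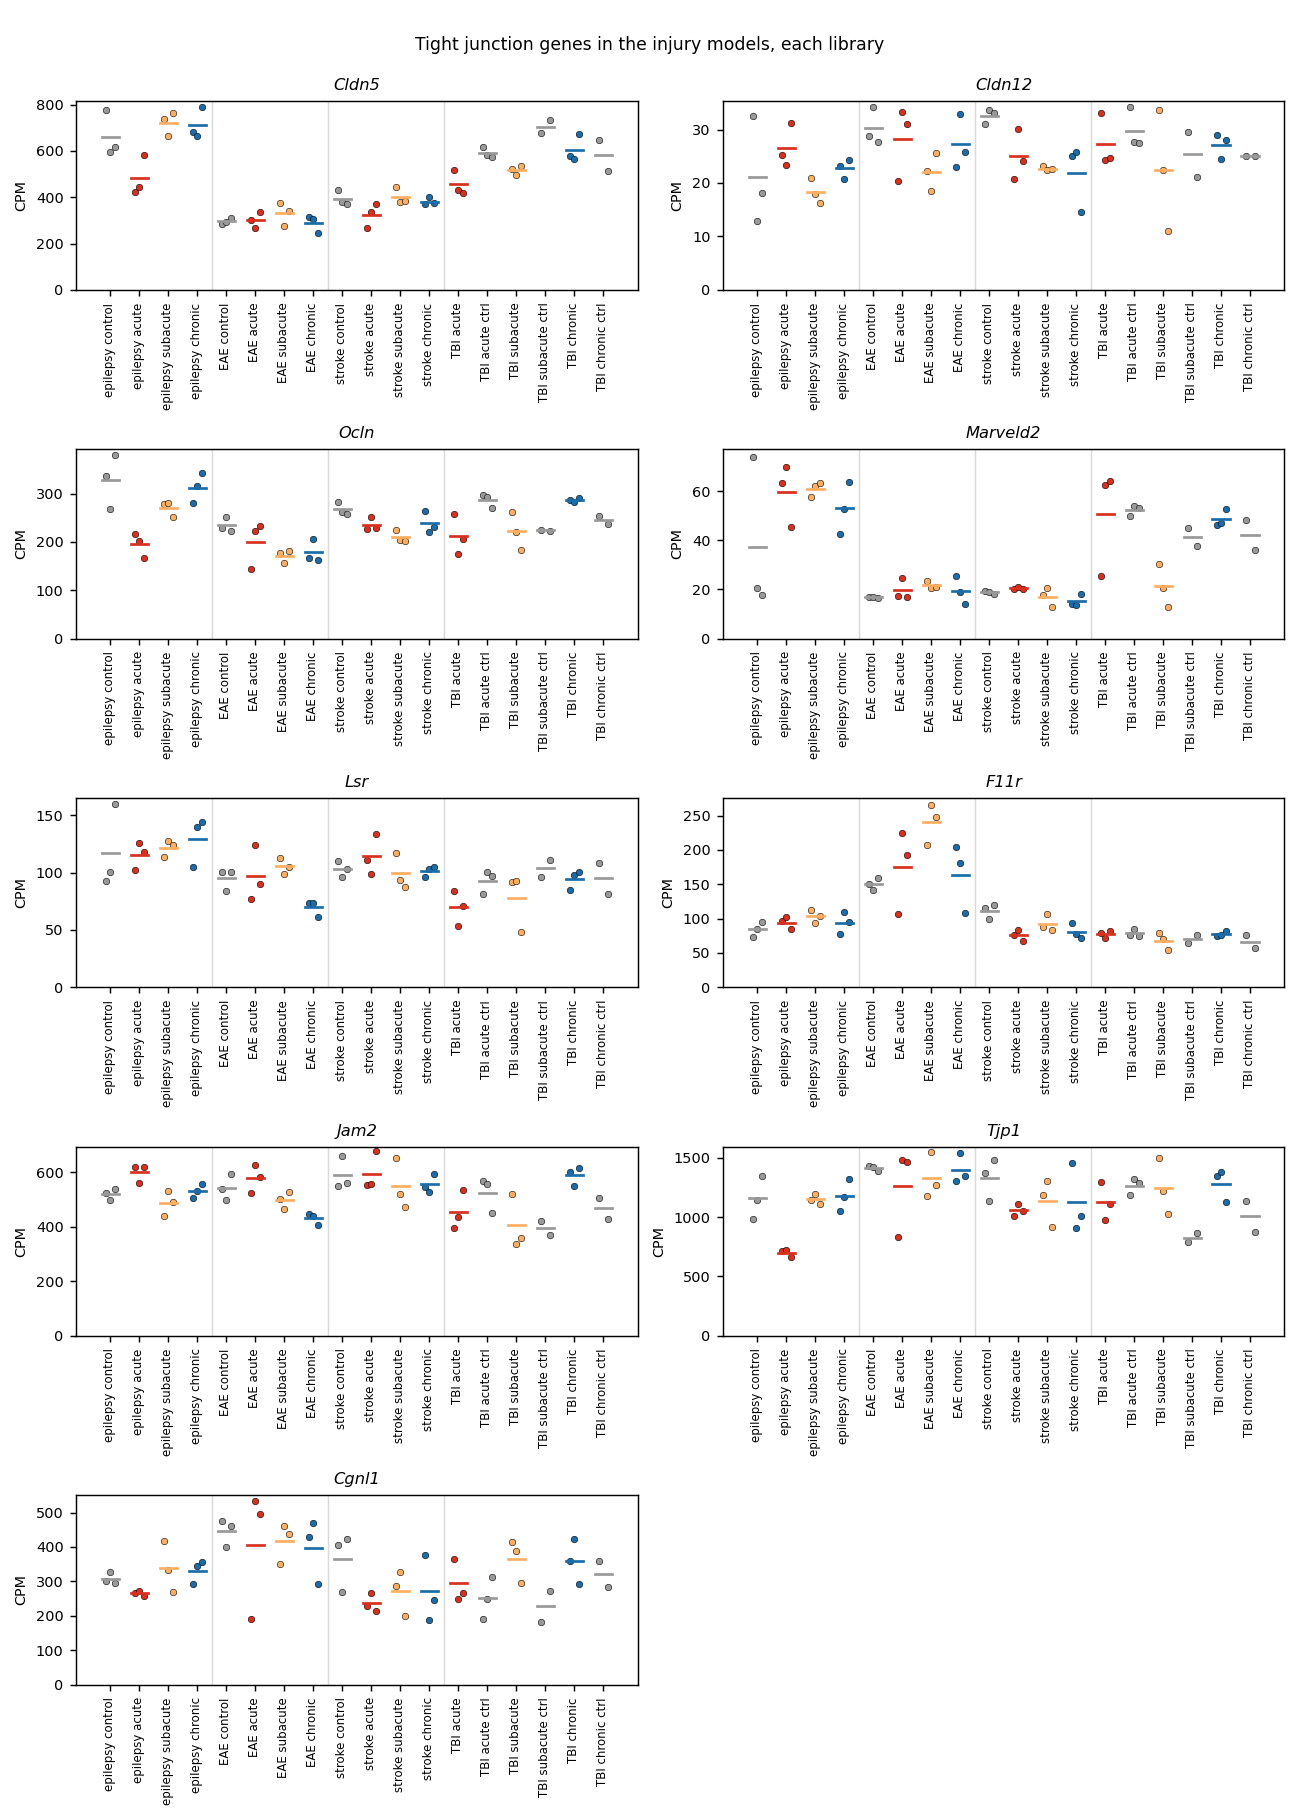
CPM of each tight junction gene in each library of the injury models (points) with the group mean (bar), axes from 0. Epilepsy, EAE and stroke run from control to chronic, and each TBI group stands left of its own control. Ocln and Tjp1 in acute epilepsy lie below all 3 controls, Marveld2 in epilepsy control replicate 1 (74.1 CPM) stands apart from the other controls, and EAE acute replicate 1 is low for Cgnl1 (191 CPM) and Tjp1 (834 CPM).

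At the subacute and chronic stages of epilepsy none of the 9 genes differed from the control in limma or in edgeR. In subacute epilepsy 11% of the 13740 genes tested passed as higher and 4.67% as lower (9.18% and 7.97% after quantile normalization, 7.80% and 8.06% by edgeR), and in chronic epilepsy 0.0437% were higher and 0.0218% lower. At an unadjusted p under 0.05 the count was 1 at the subacute stage, Marveld2 (0.99 ± 0.37, adjusted p = 0.0769), and 0 at the chronic stage. The share of all genes at that unadjusted level is not given here. The 95% interval for Cldn5 was -0.18 to 0.44 at the subacute and -0.20 to 0.42 at the chronic stage, and for Ocln -0.56 to 0.03 and -0.36 to 0.24. Without epilepsy control replicate 1, Marveld2 passed at the subacute stage (1.63, adjusted p = 0.000172) and at the chronic stage (1.41, adjusted p = 0.0285).

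Of the 41 other tight junction genes, 19 were tested in epilepsy, and at the acute stage 4 were higher and 1 lower, beside 11.6% higher and 30.9% lower (18.0% and 20.2% after quantile normalization, 18.6% and 22.7% by edgeR) of all genes. The endothelial adhesion molecule Esam had 556 ± 27.4 CPM in acute libraries, against 308 ± 12.1 CPM in controls (log2 fold 0.85 ± 0.11, adjusted p = 2.29e-05). Cldn6 had 8.20 ± 2.05 CPM in acute libraries, against 0.777 ± 0.315 CPM in controls (log2 fold 2.36 ± 0.25, adjusted p = 4.17e-06). At the subacute stage Ildr2 was higher than in controls, at 50.5 ± 4.30 CPM in subacute libraries, against 21.6 ± 11.6 CPM in controls (log2 fold 1.33 ± 0.32, adjusted p = 0.0112), and the atypical protein kinase gene Prkci of the polarity complex was lower, at 47.8 ± 4.72 CPM in subacute libraries, against 69.4 ± 9.31 CPM in controls (log2 fold -0.52 ± 0.14, adjusted p = 0.0198).

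**Figure D4:**
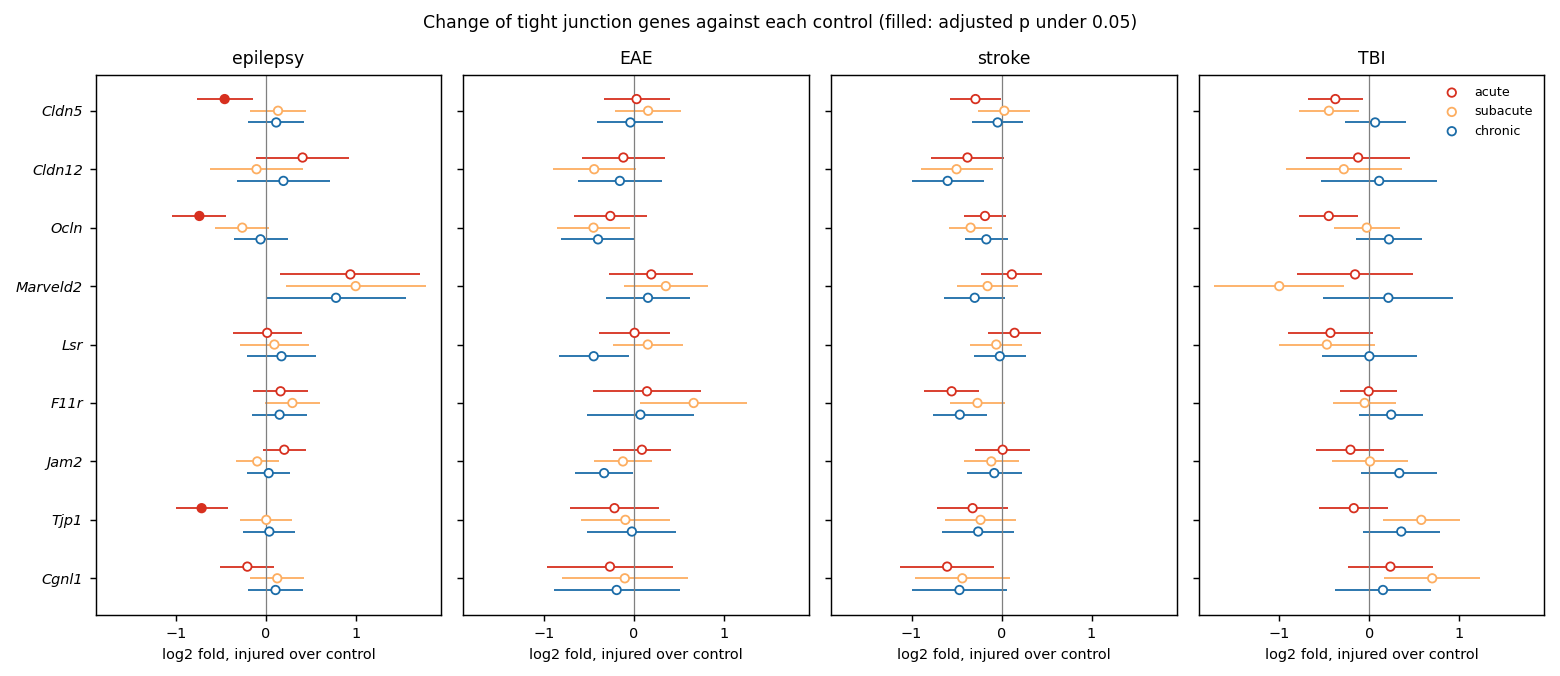
Log2 fold of each tight junction gene in injured over control libraries (points) with its 95% interval (lines), by model and stage, on log2(CPM + 1). Filled points passed an adjusted p of 0.05, which only Cldn5, Ocln and Tjp1 in acute epilepsy did, among 108 values.

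In EAE none of the 9 genes differed from the spinal cord control in limma at any stage. At the acute stage 1.11% of the 14508 genes tested passed as higher and 0.145% as lower (0.744% and 0.434% after quantile normalization, 1.16% and 0.496% by edgeR). At the subacute stage 8.06% of the 14508 genes tested passed as higher and 3.56% as lower (6.76% and 7.70% after quantile normalization, 7.74% and 5.94% by edgeR), and at the chronic stage 1.88% of the 14508 genes tested passed as higher and 0.579% as lower (2.20% and 1.39% after quantile normalization). At an unadjusted p under 0.05 the count was 0 at the acute, 2 at the subacute and 2 at the chronic stage. The share of all genes at that unadjusted level is not given here. By edgeR 1 of the 9 was called, Ocln at the subacute stage (-0.46, adjusted p = 0.0434). Cldn5, in order from control to chronic, had 283, 293 and 310.2 CPM in controls, 303, 268 and 337 CPM in acute, 377, 277 and 343 CPM in subacute and 316, 305 and 246 CPM in chronic libraries. These groups overlapped, and the 95% interval of the log2 fold was -0.34 to 0.40, -0.21 to 0.53 and -0.40 to 0.33 from the acute to the chronic stage. From the acute to the chronic stage the log2 fold was 0.19, 0.36 and 0.16 for Marveld2 and -0.12, -0.44 and -0.16 for Cldn12. It was -0.21, -0.09 and -0.02 for Tjp1 and -0.26, -0.10 and -0.19 for Cgnl1, and none of these passed.

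Ocln had 177, 157 and 181 CPM in subacute and 167, 206 and 163 CPM in chronic EAE libraries, against 229.6, 251 and 222 CPM in controls, without overlap. The log2 fold was -0.45 ± 0.19 (adjusted p = 0.141) at the subacute and -0.40 ± 0.19 (adjusted p = 0.332) at the chronic stage. F11r had, at the subacute stage, 208, 265 and 247 CPM, against 151, 142 and 159 CPM in controls, also without overlap (0.67 ± 0.28, adjusted p = 0.134). How many of all genes did not overlap is not given here, and neither Ocln nor F11r passed with all libraries in limma. Both passed when EAE acute replicate 1 was left out of the shared fit, Ocln with an adjusted p of 0.0294 and F11r with 0.0393, their folds being the same. The share of all genes called in that fit is not given here. F11r also passed with quantile normalization (0.72) and when rescaled without mitochondrial rRNA, and Cldn12 passed as lower at the subacute stage with quantile normalization (-0.55). Lsr had 73.6, 73.5 and 61.6 CPM in chronic libraries, against 101, 84.2 and 101 CPM in controls (-0.45 ± 0.18, adjusted p = 0.235), and Jam2 447, 440.1 and 406 CPM, against 539, 498 and 592 CPM (-0.33 ± 0.15, adjusted p = 0.305). Marker sums moved with the stages. In subacute EAE the sum of 10 endothelial markers was 7267 to 7857 CPM, against 10199 to 10481 CPM in controls, with 0 of the 10 called. At that stage the mural sum was 2746 to 3039 CPM, against 4580 to 5273 CPM in controls, with 2 of 10 called lower. The astrocyte sum was 162 to 235 CPM, against 114 to 141 CPM in controls, with 0 of the 4 tested called. The sum of 6 fibroblast markers was 659 to 3669 CPM in subacute and 1290.3 to 6944 CPM in chronic EAE, against 310 to 894 CPM in controls. At the chronic stage 1 of the 6 was called higher. In chronic EAE 5 of 10 mural markers were lower. Their part in the levels above was not tested. Of 21 other tight junction genes tested, 4 were higher and 0 lower at the subacute stage, beside 8.06% higher and 3.56% lower (6.76% and 7.70% after quantile normalization, 7.74% and 5.94% by edgeR) of all genes. Cldn6 had 6.45 ± 1.86 CPM in subacute libraries, against 1.61 ± 0.153 CPM in controls (log2 fold 1.48 ± 0.23, adjusted p = 0.00228). Cldn11, a claudin of myelin, had 10.4 ± 1.51 CPM in subacute libraries, against 2.31 ± 0.814 CPM in controls (log2 fold 1.81 ± 0.36, adjusted p = 0.00836). Summed oligodendrocyte markers were 7.18 to 11.8 CPM there, against 7.79 to 9.68 CPM in controls. Cxadr had 49.9 ± 5.53 CPM in subacute libraries, against 28.5 ± 2.98 CPM in controls (log2 fold 0.78 ± 0.21, adjusted p = 0.0278). At the chronic stage 2 were higher in limma and 0 lower, Cldn11 (1.57 ± 0.36, adjusted p = 0.0401) and Cldn6 (0.99 ± 0.23, adjusted p = 0.0437), beside 1.88% higher and 0.579% lower (2.20% and 1.39% after quantile normalization) of all genes.

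In stroke none of the 9 genes differed from the control at any stage in limma or edgeR. At the acute stage 0.430% of the 13474 genes tested passed as higher and 0.995% as lower (1.16% and 0.898% after quantile normalization, 2.17% and 0.660% when rescaled without mitochondrial rRNA, 0.935% and 1.08% by edgeR). At the subacute stage 3.66% of the 13474 genes tested passed as higher and 4.19% as lower (5.16% and 2.81% after quantile normalization, 6.38% and 1.63% when rescaled without mitochondrial rRNA, 5.33% and 2.11% by edgeR), and at the chronic stage no gene passed in limma, while edgeR called 3 higher and 1 lower. At an unadjusted p under 0.05 the count was 3 at the acute, 2 at the subacute and 2 at the chronic stage. Shares of all genes at that unadjusted level, or with groups that did not overlap, are not given here. F11r had 76.5, 84.0 and 66.6 CPM in acute libraries, against 116, 99.1 and 119.5 CPM in controls, without overlap (-0.55 ± 0.14, adjusted p = 0.0609). Ocln had 225, 204 and 202 CPM in subacute libraries, against 283, 262 and 257 CPM in controls, also without overlap (-0.34 ± 0.11, adjusted p = 0.0691). Cldn12 had 25.00, 25.8 and 14.5 CPM in chronic libraries, against 31.0, 33.6 and 33.0 CPM in controls (-0.60 ± 0.19, adjusted p = 0.235). Without stroke chronic replicate 1, 4 of the 27 values passed, F11r at the acute (0.0259 as adjusted p) and chronic stage (0.0274), Ocln at the subacute (0.0339) and Cldn12 at the chronic stage (0.0403). Each of these was lower in stroke. The share of all genes called in that fit is not given here. The acute and subacute folds do not use the library left out, so only the shared spread and the adjustment changed for them. F11r at the acute stage also passed without control replicate 2, and Cldn12 at the subacute stage without chronic replicate 3.

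Cldn5 in stroke had 267, 335 and 370.5 CPM in acute libraries, against 430.5, 379 and 370.2 CPM in controls (-0.29 ± 0.13, adjusted p = 0.229). The groups met at 370.5 CPM in the highest acute and 370.2 CPM in the lowest control library. Lsr (-0.06 to 0.15) and Jam2 (-0.11 to 0.01) had log2 folds on both sides of 0 over the stages, and Tjp1 (-0.32 to -0.23) and Cgnl1 (-0.60 to -0.44) had negative ones that did not pass. In subacute stroke the sum of 6 fibroblast markers was 400 to 1156 CPM, against 19.1 to 36.3 CPM in controls, and all 6 were higher. The sum of 10 endothelial markers was 6683 to 7769 CPM in acute and 6487 to 8239 CPM in subacute stroke, against 9013 to 10402 CPM in controls. None of the 10 was called at the acute stage in limma, and 2 were called lower at the subacute stage. Mitochondrial rRNA took 35.8 to 38.1% of the reads in acute and 33.4 to 39.4% in subacute stroke, against 23.6 to 31.0% in controls. Their part in the F11r, Ocln and Cldn12 values above was not tested.

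In TBI none of the 9 genes differed from the control of its stage in limma, and edgeR called 1, Ocln at the acute stage. At the acute stage 3.50% of the 14130 genes tested passed as higher and 1.95% as lower, and 4.44% and 3.47% did after quantile normalization, 4.54% and 2.97% by edgeR. At the subacute stage 1.25% of the 14130 genes tested passed as higher and 0.106% as lower (1.26% and 0.573% after quantile normalization, 0.771% and 0.255% by edgeR), and at the chronic stage no gene passed. At an unadjusted p under 0.05 the count was 2 at the acute, 4 at the subacute and 0 at the chronic stage. Shares of all genes at that unadjusted level, or with groups that did not overlap, are not given here. Ocln had 257, 175 and 205 CPM in acute libraries, against 298, 292 and 271 CPM in their controls, without overlap. The log2 fold was -0.45 ± 0.15 in limma (adjusted p = 0.106) and -0.43 in edgeR (adjusted p = 0.0415), and it passed with quantile normalization and without TBI acute replicate 1 (-0.60, adjusted p = 0.0258). Cldn5 had 519.8, 433 and 419 CPM in acute libraries, against 617, 583 and 575 CPM in their controls (-0.38 ± 0.14, adjusted p = 0.15). It had 522, 496 and 534 CPM in subacute libraries, against 678 and 733 CPM in their controls (-0.45 ± 0.16, adjusted p = 0.237), and neither pair overlapped. Summed mural markers ranged from 1443 to 9140 CPM in acute TBI and from 1018 to 7735 CPM in its controls, and 4 of 6 fibroblast markers were higher in acute TBI. Their part in these values was not tested.

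Marveld2 had 30.5, 20.6 and 12.8 CPM in subacute libraries, against 45.1 and 37.7 CPM in their controls (-1.0 ± 0.34, adjusted p = 0.21). Tjp1 had 1501, 1217 and 1027 CPM, against 789.5 and 864 CPM (0.58 ± 0.20, adjusted p = 0.225). Cgnl1 had 415, 388 and 295 CPM, against 181 and 273 CPM (0.70 ± 0.25, adjusted p = 0.242). Each of these pairs was without overlap, and none passed. With so few libraries this can arise by chance, and the share of all genes without overlap is not given here. Both subacute controls had lower Tjp1 than every acute and chronic control library (875 to 1321 CPM). From the acute to the chronic stage the log2 fold was -0.12, -0.28 and 0.11 for Cldn12 and -0.43, -0.47 and 0.00 for Lsr. It was -0.01, -0.05 and 0.24 for F11r and -0.21, 0.01 and 0.33 for Jam2, and none of these passed. The sum of 6 fibroblast markers was 315 to 471 CPM in subacute TBI libraries, against 92.5 to 199.9 CPM in their controls. Of the 6, 2 were called higher, and their part was not tested. At the chronic stage the log2 folds ran from 0.00 for Lsr to 0.36 for Tjp1. Of 18 other tight junction genes tested in TBI, 2 were higher at the acute stage (Magi1 and Pard6g) and 2 at the subacute stage (Magi1 and Ildr2), and 0 were lower, beside 3.50% and 1.25% of all genes called higher. Magi1, a scaffold of the junction, was higher at the acute stage, at 40.7 ± 1.13 CPM in acute libraries, against 28.4 ± 1.61 CPM in their controls (log2 fold 0.51 ± 0.13, adjusted p = 0.0318), and at the subacute stage, at 35.9 ± 3.55 CPM in subacute libraries, against 18.6 ± 3.10 CPM in their controls (log2 fold 0.91 ± 0.14, adjusted p = 0.00356). Ildr2 had 95.8 ± 19.6 CPM in subacute libraries, against 26.4 ± 4.37 CPM in their controls (log2 fold 1.81 ± 0.31, adjusted p = 0.00641).

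Apart from subacute against acute epilepsy, no gene of the 9 differed between successive stages in limma or edgeR. In what follows, shares of all genes are at an adjusted p under 0.05, but counts of the 9 are at an unadjusted p under 0.05. These thresholds are unlike, so the counts cannot be set against the shares. Chronic against subacute epilepsy had 1.62% higher and 3.33% lower of all genes and 0 of the 9 at an unadjusted p under 0.05. Subacute against acute EAE had 0.0896% higher and 0.0138% lower (0.138% and 0.0551% after quantile normalization, 0.0207% and 0.0138% by edgeR) and also 0 of the 9, and chronic against subacute EAE had 0.0345% higher and 0.593% lower and 1 of the 9, Lsr (-0.60 ± 0.18). Subacute against acute stroke had 3.24% higher and 0.987% lower (3.96% and 2.00% after quantile normalization) and 1 of the 9, Cldn5 (0.32 ± 0.13), and chronic against subacute stroke had 0.193% higher and 2.47% lower (0.445% and 2.09% after quantile normalization) and 0 of the 9. In TBI the differences from each stage's control were compared. Subacute against acute had 0.0142% higher and 0.00708% lower of all genes. At the unadjusted threshold 1 of the 9 was counted, Tjp1 (0.75 ± 0.27). Chronic against subacute had 0.00708% higher and 0.0849% lower of all genes. At the unadjusted threshold 2 of the 9 were counted, Cldn5 (0.51 ± 0.23) and Marveld2 (1.21 ± 0.48), and neither passed the adjusted one.

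Whether the response to injury differed between the 4 models was tested with an F test in a joint fit. At the acute stage 0 of the 9 genes differed while 31.3% of all genes did. At the subacute stage 1 differed, Marveld2 (F = 6.54, adjusted p = 0.0236), beside 7.46% of all genes, and at the chronic stage 0, beside 2.42% (385 genes in limma, 154 by edgeR). Marveld2 had a log2 fold of 0.99 in epilepsy, 0.36 in EAE, -0.16 in stroke and -1.0 in TBI at this stage. At an unadjusted p under 0.05 the count was 2 at the acute stage (Ocln and F11r), 5 at the subacute and 1 at the chronic stage. The share of all genes at that unadjusted level is not given here. By edgeR F11r was called at the acute and the subacute stage, and Marveld2 was not. The responses of Ocln and Tjp1 at the acute stage were not shown to differ between models (F = 2.86, adjusted p = 0.12 for Ocln and 0.285 for Tjp1). They passed with quantile normalization (0.000108 for Ocln and 6.44e-06 for Tjp1), and when CPM were rescaled without mitochondrial rRNA (0.000232 and 0.00207). Ocln and F11r also passed at the acute stage without EAE acute replicate 1, Ocln without epilepsy control replicate 2 (0.0431) and Cldn5 with quantile normalization (0.00489). Marveld2 passed at the acute and chronic stages without epilepsy control replicate 1 (0.00155 and 0.0254). F11r passed at the subacute stage with quantile normalization (0.0144), when rescaled without mitochondrial rRNA (0.0244) and without EAE acute replicate 1 (0.0258) or EAE chronic replicate 3 (0.0447). The Marveld2 call was lost without a filter, with edgeR, and without epilepsy control replicate 2, either subacute TBI control library or TBI subacute replicate 3.

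Cells sorted from the spinal cord, known here from the EAE control alone, had lower Cldn5 than those of brain. Cldn5 stood at 283, 293 and 310.2 CPM in spinal cord controls, against 775, 594 and 617 CPM in epilepsy, 430.5, 379 and 370.2 CPM in stroke, 617, 583 and 575 CPM in acute TBI, 678 and 733 CPM in subacute TBI and 649 and 514 CPM in chronic TBI controls. All spinal cord values lay below all brain values. The log2 fold against the mean of the 5 brain control groups was -0.96 ± 0.11 (adjusted p = 9.7e-09). Of the 9 genes 2 were lower, Cldn5 and Marveld2, and 3 higher, F11r, Cgnl1 and Tjp1, where 28.5% of the 15886 genes tested passed as higher and 19.0% as lower (22.1% and 26.6% after quantile normalization, 18.8% and 31.7% when rescaled without mitochondrial rRNA, 25.2% and 25.5% by edgeR). Region, model and any batch of the EAE libraries cannot be told apart.

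**Figure D5:**
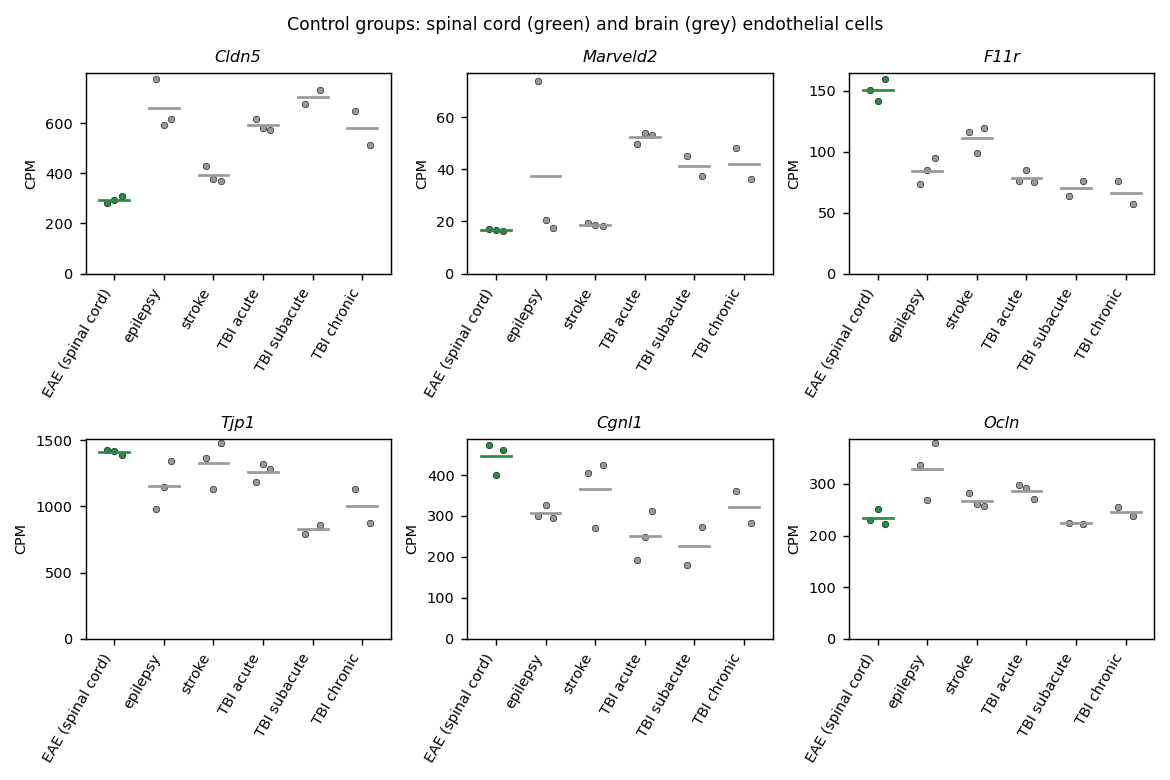
CPM of 6 tight junction genes in each control library (points) with the group mean (bar), for spinal cord (green) and the 5 brain control groups (grey). Cldn5 is below all brain controls and F11r above them, while the stroke control mean lies nearest to that of spinal cord for Cldn5, Marveld2 and F11r.

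F11r stood at 151, 142 and 159 CPM in spinal cord controls, against 56.9 to 119.5 CPM over the brain controls, without overlap (0.90 ± 0.15, adjusted p = 8.21e-06). Marveld2 stood at 17.1, 16.8 and 16.4 CPM in spinal cord controls, against 17.6 to 74.1 CPM over the brain controls (-1.01 ± 0.24, adjusted p = 0.000792). Cgnl1 (0.63 ± 0.21, adjusted p = 0.0118) and Tjp1 (0.37 ± 0.14, adjusted p = 0.0341) overlapped the brain controls, and both calls were lost with quantile normalization (0.22 for Cgnl1 and 0.07 for Tjp1), which moved the median of all genes by -0.13. Both were also lost with mitochondrial rRNA left out, Cgnl1 without EAE control replicate 1 or 3, and Tjp1 without a filter, with edgeR and without any 1 of the EAE control libraries or TBI chronic control replicate 2. Ocln (-0.19 ± 0.12), Lsr (-0.09 ± 0.15), Jam2 (0.13 ± 0.11) and Cldn12 (0.20 ± 0.20) did not pass. Ocln passed as lower in spinal cord with quantile normalization (-0.60), after rescaling without mitochondrial rRNA (-0.47) and with edgeR (-0.33), and Lsr by quantile normalization and by the rescaling (-0.37 and -0.37). Jam2 had a log2 fold of -0.30 with quantile normalization.

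Which brain control was used mattered for most of these genes. Set against each brain control group alone, an alternative chosen after seeing the data, Cldn5 was lower in spinal cord in all 5 comparisons, with a log2 fold of -1.25 against subacute TBI controls to -0.41 against stroke controls (adjusted p = 0.0337). Of the 9 genes, 1 was higher and 3 were lower in spinal cord against the epilepsy control, beside 21.5% higher and 18.7% lower (17.1% and 26.4% when rescaled without mitochondrial rRNA) of all genes. Against the stroke control Cldn5 alone passed, beside 11.9% higher and 8.57% lower (9.93% and 11.7% after quantile normalization, 9.39% and 15.1% when rescaled without mitochondrial rRNA, 10.9% and 12.1% by edgeR). The counts were 2 higher and 2 lower against the acute TBI control, beside 22.5% higher and 17.8% lower (18.9% and 23.1% after quantile normalization, 15.1% and 27.9% when rescaled without mitochondrial rRNA). They were 4 higher and 2 lower against the subacute TBI control, beside 29.6% higher and 15.7% lower (21.7% and 24.1% after quantile normalization, 17.3% and 29.5% when rescaled without mitochondrial rRNA, 21.8% and 24.4% by edgeR), and 1 higher and 2 lower against the chronic TBI control, beside 17.9% higher and 7.65% lower (12.0% and 13.8% after quantile normalization, 9.03% and 20.3% when rescaled without mitochondrial rRNA, 11.8% and 14.3% by edgeR). Marveld2 was at 16.8 ± 0.355 CPM in spinal cord and 18.8 ± 0.503 CPM in stroke controls (SD, n = 3 each), and F11r had a log2 fold of 0.43 (adjusted p = 0.103). All 6 fibroblast markers were higher in spinal cord controls, with a sum of 310 to 894 CPM, against 19.1 to 200 CPM over the brain controls. Mitochondrial rRNA took 17.4 to 18.7% of the reads in spinal cord controls, against 23.6 to 41.7% in brain controls. The part of neither in these differences was tested. Of 23 other tight junction genes tested, 11 were higher and 1 lower in spinal cord, beside 28.5% higher and 19.0% lower (22.1% and 26.6% after quantile normalization, 18.8% and 31.7% when rescaled without mitochondrial rRNA, 25.2% and 25.5% by edgeR) of all genes. Cldn1, a claudin of epithelia and meninges, had 9.27 ± 5.59 CPM in spinal cord controls, against 0.276 ± 0.472 CPM in brain controls (log2 fold 2.94 ± 0.34, adjusted p = 9.1e-09), Ildr2 had 108 ± 26.7 CPM in spinal cord controls, against 30.8 ± 9.26 CPM in brain controls (log2 fold 1.81 ± 0.28, adjusted p = 1.74e-06), and the polarity scaffold Pard3 had 128 ± 7.98 CPM in spinal cord controls, against 63.6 ± 15.9 CPM in brain controls (log2 fold 1.09 ± 0.17, adjusted p = 1.81e-06).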

How the data were processed

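RNA-seq had been made from 68 mouse libraries with NuGEN Ovation kits, per the labels' protocols. The submitters' processing notes name TopHat2 2.0.13, Subread, featureCounts and build mm9, with no roles. The authors deposited CPM per gene (reads scaled to 1000000 per library), and their table also holds a module correlation, a score that the authors computed, and the p-value of that correlation as the authors deposited it. Of 1374704 nonzero CPM values, 100% were whole multiples of 1 read within 0.001, so reads were recovered. Values were tested as log2(CPM + 1) with limma 3.58.1 in R 4.3.3, with a trend and Benjamini-Hochberg adjustment over all genes tested, threshold 0.05. Each model was fitted alone and healthy groups together. Genes needed over 1 CPM in 3 libraries (epilepsy, EAE, stroke) or 2 (healthy, TBI, joint fits). edgeR 4.0.16 on recovered reads was an alternative. On recovered reads edgeR called 2559 genes higher and 3122 lower in acute epilepsy, where limma called 1587 and 4247. The fits were tested on simulated data. The rule named all 9 genes in every comparison, several of them by range or count, and of 41 other junction genes those with the smallest adjusted p, apart from a gene not reported here. The members and lists were chosen with earlier results of these data known. Whether counting used strand is not given in the sources used here. Annotated RNAs overlap Ocln, Marveld2, Jam2 and Cgnl1, so their counts may be shared.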

Additional observations from a re-analysis of the deposited data

Results flagged for a closer look

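The rule for a library that stands apart needs at least 4 libraries, so only whole brain (n = 4) could be flagged. There 1 library stood apart for each of 2 genes, not the same one. Ocln was 3.70 CPM in replicate 4 and 6.55 to 6.56 CPM in the others, so that the gap took a share of 0.996 of the group's range. For Lsr, replicate 2 was at 2.12 CPM and the others at 1.53 to 1.61 CPM, a share of 0.854. Chance flags about 1 in 20 groups.

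The response of Marveld2 to injury differed between the 4 models at the subacute stage (F test in limma, adjusted p = 0.0236). The call was lost under 6 alternatives.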

How the results depend on the processing

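Counts of the 9 genes past the threshold moved as follows. For differences between models the count was 1 over 3 stages, against 0 without a filter, 5 with quantile normalization, 4 with mitochondrial rRNA left out, 2 with edgeR and 0 to 4 with 1 library left out. For epilepsy it was 3, against 6 with quantile normalization and 2 to 6 with 1 library left out. For EAE it was 0, against 2 with quantile normalization, 1 with mitochondrial rRNA left out, 1 with edgeR and 0 to 2 with 1 library left out. For TBI it was 0, against 1 with quantile normalization, 1 with edgeR and 0 to 1 with 1 library left out. With 1 library left out it was 0 to 4 in stroke and 0 to 2 for brain vascular against brain endothelial, against 0 with all libraries. Between stages it was 4, against 3 without a filter, 5 with quantile normalization, 3 with edgeR and 2 to 5 with 1 library left out. For spinal cord against brain controls it was 5, against 1 with the stroke control alone, 3 with the chronic TBI control alone, both chosen after seeing the data, and 3 to 5 with 1 library left out. Jam2 changed sign with quantile normalization, to 0.0843 between subacute and acute epilepsy and to -0.2973 in spinal cord against brain controls. The cause was not tested. Over 288 values, edgeR added 12 calls and ended 6, and a pseudocount of 0.1 ended 2. Same-numbered libraries did not deviate together in every pair (correlations -0.686 to 0.431 in TBI). With so few libraries per group this check cannot settle whether numbers pair the samples, and the labels do not say. The main fits assumed no pairing. With the replicate number as a block the count was 4 in epilepsy, 5 for brain endothelial and 7 for brain vascular against the organs. Under the block Marveld2 passed in acute epilepsy (adjusted p = 0.049) and F11r passed against kidney (0.0233, brain endothelial) and the organs (0.0471, brain vascular), while Tjp1 against kidney (0.0511) and Cldn5 against the organs (0.0508), both for brain endothelial, did not. Over all genes, chronic differences between models numbered 385 in limma and 154 by edgeR, acute stroke calls 58 higher and 134 lower against 312 and 95 with mitochondrial rRNA left out, and brain vascular against brain endothelial calls 748 higher and 661 lower against 1668 and 552. Chronic epilepsy had 6 genes called higher and 3 lower in limma, 1 and 3 on quantile-normalized values and 7 and 7 by edgeR. For subacute against acute EAE these were 13 and 2, then 20 and 8, then 3 and 2, and for the same stages of TBI 2 and 1, then 8 and 3, then 3 and 2. With n = 2 to 3 per group, small differences could not be detected.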
